A study of Mus musculus with 24 samples.

Results

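Day 4 of adipocyte differentiation was compared with day 2 in cultured 3T3-L1, mouse fibroblasts that turn into fat cells when induced. The comparison rests on 6 of the 24 arrays of a beadchip time course, the 3 titled day 2 and the 3 titled day 4, and covers all 9558 genes with a detected probe. Both groups are labelled as NIH 3T3 L1 cells that were differentiating, and both were in medium with insulin, dexamethasone and IBMX. Dexamethasone activates the glucocorticoid receptor, and IBMX blocks phosphodiesterases and so keeps cyclic AMP high. The labels thus give both groups the same inducers, but whether the medium was renewed or changed between the days is not stated in the sources read here. The other 18 arrays, on days 0 and 6 to 18, enter the normalization, the detection filter and the choice of a gene's probe. They also enter the estimate of spread and the description of the course. Detection on any 3 of the 24 arrays was enough, so 456 of the 9558 genes were undetected on all 6. Whether the 3 replicates of a day were separate cultures is not stated in the sources read here, so the p-values measure the spread between these samples, which may be technical. One line in culture limits the groups as a model, since no fat tissue and no second line was measured.

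All values are normalized log2 intensities, on which 1 unit is a 2-fold difference, and intensities of different genes are not comparable because each probe binds with its own strength. A difference is day 4 minus day 2 on that log2 scale, given ± SE with n = 3 arrays per day. A gene was called, and is said to have risen or fallen, at a Benjamini-Hochberg adjusted p under 0.05 in the limma fit. Of 9558 genes 3958 were called, which is 41.4% of those tested. Higher on day 4 were 1789 genes (18.7%) and lower 2169 (22.7%), and 389 (4.07%) rose and 420 (4.39%) fell at least 2-fold. Day 4 replicate 2 stood apart through genes that are high on later days, so counts are also given without it. That left 3620 calls (37.9%), 1686 higher (17.6%) and 1934 lower (20.2%), with 397 (4.15%) and 435 (4.55%) at least 2-fold. On 4676 genes (48.9%) the day 4 arrays all lay on one side of the day 2 arrays. Arrays with the same replicate number deviated together on both days, so counts that move by more than 1.5 times with the replicate number as a block in the fit are also given with that block, in which 5098 genes (53.3%) were called, 2319 higher (24.3%) and 2779 lower (29.1%). RNA came from whole cultures, in which fewer cells of a type and less RNA per cell cannot be told apart.

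In 3T3-L1 cells the inducing mixture first drives a round of cell division and the early transcription factors C/EBPβ and C/EBPδ, which switch on PPARγ and C/EBPα. Those factors then turn on the genes of the fat cell, among them enzymes that make fatty acids and triglyceride and proteins that coat the lipid droplet. SREBP proteins drive the genes of fatty acid and cholesterol synthesis, while E2F factors and the DREAM complex govern replication and mitosis genes. In such cultures dividing, committed cells later begin to fill with fat. Only RNA was measured here, so neither division nor lipid content was observed between day 2 and day 4.

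The labelled cell type was checked against marker lists. All 9 tested adipocyte markers were higher on day 4, among them the hormone gene Adipoq, which lay between 10.87 and 11.06 on day 2 and 13.24, 13.67 and 13.47 on day 4. Every day 4 array lay above every day 2 array, and the difference was 2.49 ± 0.11 (limma adjusted p = 1.07e-12). Without day 4 replicate 2, 8 of the 9 passed, since leptin (Lep) did not, nor did it without day 2 replicate 2 or 3 (limma adjusted p = 0.0717 and adjusted p = 0.13). Of 9 fibroblast and preadipocyte markers 8 fell, and 9 did without that array, when Col3a1 passed too. Thy1, a surface protein of fibroblasts, changed by -1.57 ± 0.13 and the intermediate filament gene Vim by -1.15 ± 0.12. Of 10 macrophage markers only Cd14 and Lyz2 were tested, Lyz2 was undetected on all 6 arrays and Cd14 fell by 0.84 ± 0.15. Of 9 endothelial markers only Egfl7 was tested, and it fell by 0.83 ± 0.11. Krt14 and Krt8, keratins of epithelia, rose by 1.29 ± 0.09 and 0.86 ± 0.11, and in their list 2 of 4 were higher and 0 lower (2 and 0 without day 4 replicate 2). Of skeletal muscle markers 1 of 5 were higher and 0 lower (2 and 1 without day 4 replicate 2). Of smooth muscle and pericyte markers 1 of 4 were higher and 1 lower (1 and 1 without day 4 replicate 2). The filament gene Des, in both lists, rose by 1.46 ± 0.10, and the smooth muscle actin Acta2 fell by 1.69 ± 0.27. The part of other cell types in these values was not tested.

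The largest rises came from genes of varied roles, with Thrsp, Ces1d and Gpd1 of lipid metabolism at the head. Thrsp, a nuclear protein tied to fatty acid synthesis (chromosome 7, 97412933 to 97417550, build GRCm38.p6), stood at 6.07, 5.36 and 5.92 on day 2 and 11.35, 11.09 and 11.34 on day 4. The groups were far apart, and the difference of 5.48 ± 0.16 is a 44.5-fold rise (limma adjusted p = 1.87e-15). Ces1d, a carboxylesterase that splits triglyceride (chromosome 8, 93166072 to 93197804), was at 7.20, 7.30 and 7.06 on day 2 and 12.11, 12.53 and 12.15 on day 4. No array overlapped, and it rose 33.8-fold (5.08 ± 0.09, limma adjusted p = 1.36e-18). Gpd1, which makes glycerol 3-phosphate for triglyceride (chromosome 15, 99717587 to 99725014), was at 7.21, 7.02 and 7.24 on day 2 and 10.99, 11.21 and 11.28 on day 4, a rise of 4.00 ± 0.16 with no overlap. Mrap, which brings the ACTH receptor to the cell surface (chromosome 16, 90738207 to 90749785), was at 7.80, 7.74 and 7.57 on day 2 and 11.36, 11.17 and 11.16 on day 4. Its arrays were also clear of each other, with a difference of 3.53 ± 0.09. Gpt, an alanine aminotransferase, rose by 3.45 ± 0.11, Adig, a small adipocyte membrane protein, by 3.27 ± 0.08, and Slc13a4, a sulfate carrier, by 3.03 ± 0.15. Cdsn, an adhesion protein of the skin, rose by 3.76 ± 0.09, and the plasma protein gene Itih4, detected on 1 of 3 day 2 arrays, by 3.62 ± 0.14. Genes that were below background on all day 2 arrays have only a lower bound. Tmem45b, a membrane protein, was at least 25.7-fold higher on day 4, the apolipoprotein genes Apoc3 and Apoc4 at least 9.69-fold and 8.14-fold, and the opsin gene Rgr at least 6.09-fold. In all, 72 genes rose at least 4-fold and 13 fell that far, and 15 rose at least 8-fold against 0 that fell so far. At an unadjusted p under 0.05 limma had 4561 genes in either direction.

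**Figure D1:**
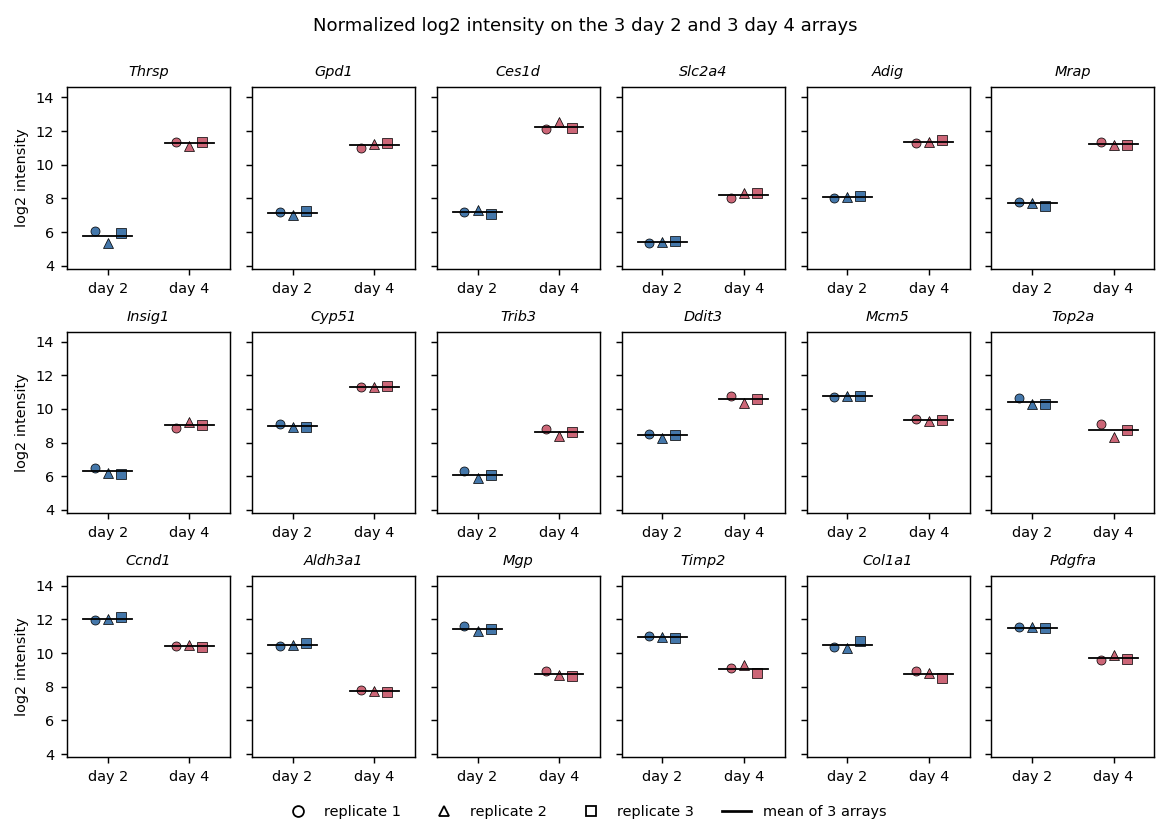
Normalized log2 intensity of 18 genes on each of the 6 arrays, with day 2 in blue, day 4 in red, a marker shape for each replicate and a line at the mean of 3 arrays. In every panel the day 4 arrays lie wholly above or wholly below the day 2 arrays, for Thrsp by 5.48 on average and for Aldh3a1 by -2.75.

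The largest falls were smaller than the largest rises and came from mixed families. Aldh3a1, an aldehyde dehydrogenase (chromosome 11, 61208510 to 61218418, GRCm38.p6), was at 10.40, 10.49 and 10.62 on day 2 and 7.82, 7.73 and 7.70 on day 4. It fell by 2.75 ± 0.12 with the groups far apart (limma adjusted p = 6.09e-13). Mgp, which keeps matrix from calcifying (chromosome 6, 136872435 to 136875823), was at 11.60, 11.33 and 11.45 on day 2 and 8.93, 8.68 and 8.67 on day 4 and fell by 2.70 ± 0.14. Pentraxin 3 (Ptx3), an innate immune protein, fell by 2.12 ± 0.19, and the growth factor pleiotrophin (Ptn) by 2.08 ± 0.13. Other falls of this size were in Arsj, an arylsulfatase (-2.40 ± 0.29), the keratin Krt13 (-2.21 ± 0.10), the steroid sulfate carrier Slc10a6 (-2.18 ± 0.14) and the prokineticin receptor Prokr1 (-2.15 ± 0.19). Chst2, a sulfotransferase, fell by 2.15 ± 0.20, the chromatin remodeller Smarca1 by 2.14 ± 0.12 and the death receptor Tnfrsf21 by 2.03 ± 0.16. Cyp7b1, which hydroxylates oxysterols, fell by 2.01 ± 0.10. Without day 4 replicate 2 the differences of Aldh3a1 and Mgp were -2.74 ± 0.14 and -2.66 ± 0.16.

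Fatty acid synthesis rose nearly as a whole. Of its tested genes 15 of 17 were higher and 1 lower (14 and 1 without day 4 replicate 2), against 18.7% higher over all genes, and the median difference was 1.22 beside -0.02 over all genes. Scd1, which puts a double bond into fatty acids, was at 12.07, 12.55 and 12.36 on day 2 and 13.68, 14.27 and 14.13 on day 4, so that all 3 day 4 arrays were above day 2. Acaca, the acetyl-CoA carboxylase that commits carbon to fatty acids, rose by 1.24 ± 0.09, and the synthase Fasn by 1.22 ± 0.17. The citrate carrier Slc25a1, which brings mitochondrial carbon to the cytosol, rose by 2.22 ± 0.10, the dicarboxylate carrier Slc25a10 by 1.89 ± 0.11 and the acetyl-CoA synthetase Acss2 by 1.83 ± 0.12. Acly, which splits that citrate, rose by only 0.42 ± 0.10. The elongase Elovl6 went the other way, by -0.90 ± 0.15, with 7.09, 6.81 and 6.95 on day 2 and 6.30, 5.82 and 6.03 on day 4. Srebf1, the SREBP gene of this pathway, rose by 0.37 ± 0.13 (limma adjusted p = 0.0256) and was not called without day 4 replicate 2, at 0.36 ± 0.15 (limma adjusted p = 0.0614). Leaving out replicate 1 of either day or day 2 replicate 3 ended its call too, with adjusted p from 0.051 to 0.0763 in limma.

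Triglyceride assembly, storage and breakdown rose together. In triglyceride assembly 8 of 12 were higher and 0 lower (8 and 0 without day 4 replicate 2), with a median of 1.17. Dgat2, which adds the last fatty acid, was at 11.62, 11.60 and 11.64 on day 2 and 13.77, 13.64 and 13.75 on day 4 and rose by 2.10 ± 0.08. Agpat2, an acyltransferase earlier in the chain, rose by 1.73 ± 0.14, and the phosphatase Lpin1 by 1.22 ± 0.19. The glycerol channel Aqp7 was undetected on day 2 and at least 2.15-fold higher on day 4, or at least 1.28-fold without replicate 2, which had the highest level, and it was not called on the 6 arrays alone (limma adjusted p = 0.0867). Among lipid droplet proteins 9 of 15 were higher and 1 lower (8 and 1 without day 4 replicate 2; 10 and 2 with the replicate block): the coat protein Plin1 rose by 1.90 ± 0.12, Cidec, which fuses droplets, by 1.89 ± 0.12, seipin (Bscl2) by 1.76 ± 0.07 and G0s2, which holds back lipolysis, by 1.80 ± 0.15. The exception was Hilpda at -0.20 ± 0.07, which did not pass without day 4 replicate 2, without replicate 1 of either day or without day 2 replicate 3 (-0.17 to -0.21). In lipolysis 8 of 8 were higher and 0 lower (8 and 0 without day 4 replicate 2), with the lipase Pnpla2 at 1.44 ± 0.07, the hormone-sensitive lipase Lipe at 1.32 ± 0.11 and the monoglyceride lipase Mgll at 1.69 ± 0.11. Ces1d, in this list too, raises its median of 1.34 as 1 member of 8. In fatty acid uptake and binding 9 of 14 were higher and 2 lower (8 and 2 without day 4 replicate 2). The probe for Fabp4, an abundant fatty acid binding protein, was undetected on day 2 and at least 3.77-fold higher on day 4. Slc27a1, a fatty acid transporter, rose by 1.20 ± 0.09, and the very-low-density lipoprotein receptor Vldlr and the ligase Acsl5 fell by 0.82 ± 0.17 and 0.85 ± 0.11.

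Cholesterol synthesis rose as far as fat synthesis, with a median of 1.39. Of its members 15 of 18 were higher and 1 lower (13 and 1 without day 4 replicate 2). Insig1, which holds SREBP in the endoplasmic reticulum and is itself an SREBP target, was at 6.51, 6.22 and 6.12 on day 2 and 8.85, 9.25 and 9.03 on day 4. The groups did not overlap and the difference was 2.76 ± 0.12 (limma adjusted p = 7.06e-13). Cyp51, the lanosterol demethylase, was at 9.08, 8.95 and 8.95 on day 2 and 11.29, 11.29 and 11.34 on day 4, and rose by 2.31 ± 0.13. Fdps, which makes farnesyl diphosphate, rose by 2.11 ± 0.09, and the later enzymes Nsdhl, Dhcr7 and Msmo1 by 1.86 ± 0.16, 1.47 ± 0.11 and 1.43 ± 0.09. Idi1 differed by 1.81 ± 0.66 but with a large spread, and was not called without day 4 replicate 2 (limma adjusted p = 0.145), nor without day 2 replicate 1 or 3 or day 4 replicate 3 (adjusted p from 0.0706 to 0.101). The cholesterol transfer protein gene Stard4 fell by 0.31 ± 0.10, and was not called without day 4 replicate 1 (limma adjusted p = 0.0787).

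The promoters of the cholesterol genes are shown because this list moved together and most of its promoters share 1 motif. Over the 300 bases from 250 before the start to 50 after it, 15 of 18 promoters of the list (83.3%) held CCAAT on either strand, the letters that NF-Y reads, against 37.4% of all 32851 mouse promoters in the RefSeq table. The letters CCAAT were as common in some lists that did not rise together. They were in 82.4% of histone promoters, a list with 10 genes higher and 4 lower, and in 75% of mitosis promoters, a list that fell. Of other lists that rose, fatty acid synthesis had 68.4% and lipolysis 0%. Among genes called at least 2-fold the share was 43% for rises and 37.3% for falls. CCAAT thus did not separate lists that rose from lists that fell. The sterol element TCACNCCAC was in 1 of 18 cholesterol promoters (5.56%) against 1.24%, and no match says only that these letters are not in this window. Dhcr7 (chr7:143830114-143830213, plus strand), Msmo1 (chr8:64733579-64733678, minus strand), Mvd (chr8:122443423-122443522, minus strand) and Cyp51 (chr5:4104698-4104797, minus strand) are given as the 100 bases before the start, 5′ to 3′ on the gene's strand, in RefSeq's GRCm38.p6. Capitals mark CCAAT, or ATTGG where it lies on the other strand. A match is a description of the sequence and not a site of binding.
Dhcr7: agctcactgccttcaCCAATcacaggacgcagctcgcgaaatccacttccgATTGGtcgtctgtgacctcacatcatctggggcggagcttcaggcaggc
Msmo1: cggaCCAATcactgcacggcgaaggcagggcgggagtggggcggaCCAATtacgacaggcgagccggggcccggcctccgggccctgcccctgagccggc
Mvd: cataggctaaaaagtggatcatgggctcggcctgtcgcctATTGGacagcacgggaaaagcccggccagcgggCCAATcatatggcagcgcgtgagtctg
Cyp51: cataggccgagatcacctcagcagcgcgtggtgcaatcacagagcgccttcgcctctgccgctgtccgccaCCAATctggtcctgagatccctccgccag

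Other membrane lipids moved less evenly. In phospholipid synthesis 9 of 15 were higher and 1 lower (8 and 1 without day 4 replicate 2), led by Chpt1, the last enzyme of phosphatidylcholine synthesis, at 7.72, 7.23 and 7.24 on day 2 and 10.06, 10.08 and 9.89 on day 4. That is a rise of 2.61 ± 0.12 with no overlap, and Pcyt2, which serves phosphatidylethanolamine, rose by 1.41 ± 0.15. The acyltransferases Lpcat3 and Lpcat1 parted, at 1.01 ± 0.12 and -0.66 ± 0.15, and Lpcat1 was detected on 1 of 3 day 4 arrays. In sphingolipid synthesis 7 of 17 were higher and 4 lower (7 and 5 without day 4 replicate 2). The sphingomyelin synthase Sgms2 rose by 1.24 ± 0.10 and the ceramide synthase Cers4 by 1.00 ± 0.31, which was not called without day 4 replicate 1 or day 2 replicate 3 (limma adjusted p = 0.0907 and adjusted p = 0.068), while the sphingosine kinase Sphk1 fell by 1.22 ± 0.13 and Ugcg, which makes glucosylceramide, by 0.76 ± 0.11.

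In every mitochondrial list more genes rose than fell. In fatty acid oxidation 16 of 18 were higher and 0 lower (16 and 0 without day 4 replicate 2), with a median of 0.81. The carnitine acetyltransferase Crat led at 9.28, 9.05 and 9.34 on day 2 and 11.60, 11.27 and 11.52 on day 4, and the acyl-CoA dehydrogenases Acadl, Acadvl and Acads rose by 1.44 ± 0.12, 1.30 ± 0.09 and 1.29 ± 0.09. Of genes for pyruvate oxidation and the citric acid cycle 17 of 21 were higher and 1 lower (15 and 1 without day 4 replicate 2). Citrate synthase (Cs) rose by 1.16 ± 0.10 and the pyruvate dehydrogenase subunit Pdhb by 1.32 ± 0.14. Pdk2, a kinase that switches that enzyme off, rose too, by 1.36 ± 0.16, and was detected on 2 of 3 day 2 arrays. The isocitrate dehydrogenase gene Idh2 was at 10.90, 11.80 and 11.49 on day 2 and 9.66, 10.99 and 10.43 on day 4, an overlap of the groups, with -1.04 ± 0.41 (limma adjusted p = 0.0469). It was called without day 4 replicate 2 and day 2 replicate 1, and not without any of the other 4 arrays (adjusted p from 0.0814 to 0.229).

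Respiratory chain subunits showed small and even rises. In complex I 21 of 31 were higher and 0 lower (21 and 0 without day 4 replicate 2), with a median of 0.52, and Ndufc1 and Ndufs3 at 0.73 ± 0.09 and 0.72 ± 0.09 were among its largest. In complexes III and IV 15 of 23 were higher and 0 lower (15 and 0 without day 4 replicate 2), Uqcrc1 by 0.88 ± 0.12. In ATP synthase 7 of 15 were higher and 0 lower (7 and 0 without day 4 replicate 2). In the mitochondrial ribosome 29 of 60 were higher and 2 lower (23 and 2 without day 4 replicate 2; 35 and 5 with the replicate block), with Mrps10 at 0.74 ± 0.10 and Mrps6 at -0.67 ± 0.14. In protein import 8 of 23 were higher and 0 lower (8 and 0 without day 4 replicate 2; 10 and 1 with the replicate block), led by Grpel1 (0.56 ± 0.07). Cox8b and Cox7a1, subunit forms of brown fat and muscle, moved further. Cox8b was undetected on day 2 and at least 7.76-fold higher, and Cox7a1, detected on 1 of 3 day 2 arrays, rose by 1.81 ± 0.30. Elovl3, an elongase of brown fat, was undetected on day 2 and reached 7.44, 7.23 and 7.31 on day 4, at least 5.68-fold higher. Of 5 tested brown and beige markers 4 were higher (3 without day 4 replicate 2), and Ucp1, Dio2 and Prdm16 had no probe that passed the detection filter.

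Amino acid breakdown, peroxisomes and glycogen followed. In branched-chain amino acid breakdown 10 of 17 were higher and 0 lower (10 and 0 without day 4 replicate 2), with the transaminase Bcat2 at 8.92, 8.99 and 8.96 on day 2 and 11.38, 10.998 and 11.41 on day 4. No array overlapped, and Bcat2 rose by 2.31 ± 0.15, Pccb of propionyl-CoA carboxylase by 1.47 ± 0.08 and Bckdha of the branched-chain dehydrogenase by 1.18 ± 0.09. Among peroxisome genes 21 of 29 were higher and 1 lower (20 and 0 without day 4 replicate 2), with a median of 0.64. The thiolase Acaa1b was undetected on day 2 and at least 3.56-fold higher. The membrane protein Pxmp4 rose by 1.83 ± 0.12, catalase (Cat) by 1.68 ± 0.09 and Gnpat, the first enzyme of ether lipid synthesis, by 1.74 ± 0.10. Its partner Agps differed by -0.63 ± 0.22 and was not called without day 4 replicate 2, day 2 replicate 1 or day 4 replicate 3 (limma adjusted p from 0.0549 to 0.109). The assembly factors Pex16, Pex3, Pex19 and Pex11a rose by 1.32 ± 0.09, 1.20 ± 0.11, 1.06 ± 0.15 and 1.05 ± 0.19. In glycogen metabolism 6 of 12 were higher and 0 lower (7 and 0 without day 4 replicate 2). The phosphorylase Pygl was undetected on day 2 and at least 4.84-fold higher, and the primer protein Gyg rose by 1.66 ± 0.13.

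Sugar pathways and redox enzymes were divided. In glycolysis 6 of 17 were higher and 3 lower (6 and 3 without day 4 replicate 2), with Aldoa at 0.82 ± 0.10 and Hk2 at 0.72 ± 0.12 up. Hk1, detected on 1 of 3 day 4 arrays, fell by 0.72 ± 0.16, and Eno2, undetected on day 4, was at least 1.49-fold lower. Gapdh, often used as a reference gene, was not called at -0.20 ± 0.08 (limma adjusted p = 0.057), and was called lower with the replicate block (limma adjusted p = 0.0364). It was also called without day 4 replicate 3, without background correction, with its probes averaged, with detection on 3 of the 6 arrays and on the 6 arrays with the block (limma adjusted p from 0.0284 to 0.0484). In the pentose phosphate list 5 of 12 were higher and 4 lower (5 and 3 without day 4 replicate 2), with transketolase (Tkt) at 1.04 ± 0.12, malic enzyme (Me1) at 1.21 ± 0.36 and the nucleotide precursor enzyme Prps2 at -0.87 ± 0.28. Me1 was not called without day 2 replicate 1 (0.97 ± 0.39), and Prps2 not without day 4 replicate 1 or day 2 replicate 2 or 3 (-0.70 to -0.78). Among glutathione S-transferases 8 of 21 were higher and 2 lower (6 and 3 without day 4 replicate 2; 8 and 4 with the replicate block), led by Gsta3 at 5.87, 5.61 and 5.72 on day 2 and 8.08, 8.31 and 8.16 on day 4, with a rise of 2.45 ± 0.11, while Gstm2 fell by 0.84 ± 0.17, not called on the 6 arrays alone (limma adjusted p = 0.0556). Without day 2 replicate 2 the transferases had 5 higher. Among aldehyde dehydrogenases 6 of 13 were higher and 3 lower (6 and 3 without day 4 replicate 2). Aldh5a1, of GABA breakdown, rose by 2.37 ± 0.11, opposite to the large fall of Aldh3a1. Among antioxidant enzymes 8 of 26 were higher and 6 lower (7 and 4 without day 4 replicate 2), with Sod1 at 0.84 ± 0.08 and the peroxiredoxin Prdx4 at -0.90 ± 0.06. The antioxidant shares, 30.8% and 23.1%, stand beside 18.7% and 22.7% over all genes. In iron handling 8 of 18 were higher and 1 lower (7 and 2 without day 4 replicate 2; 8 and 2 with the replicate block), with transferrin (Trf) at 1.55 ± 0.21 and Ncoa4, which delivers ferritin to lysosomes, at 1.59 ± 0.14.

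**Figure D2:**
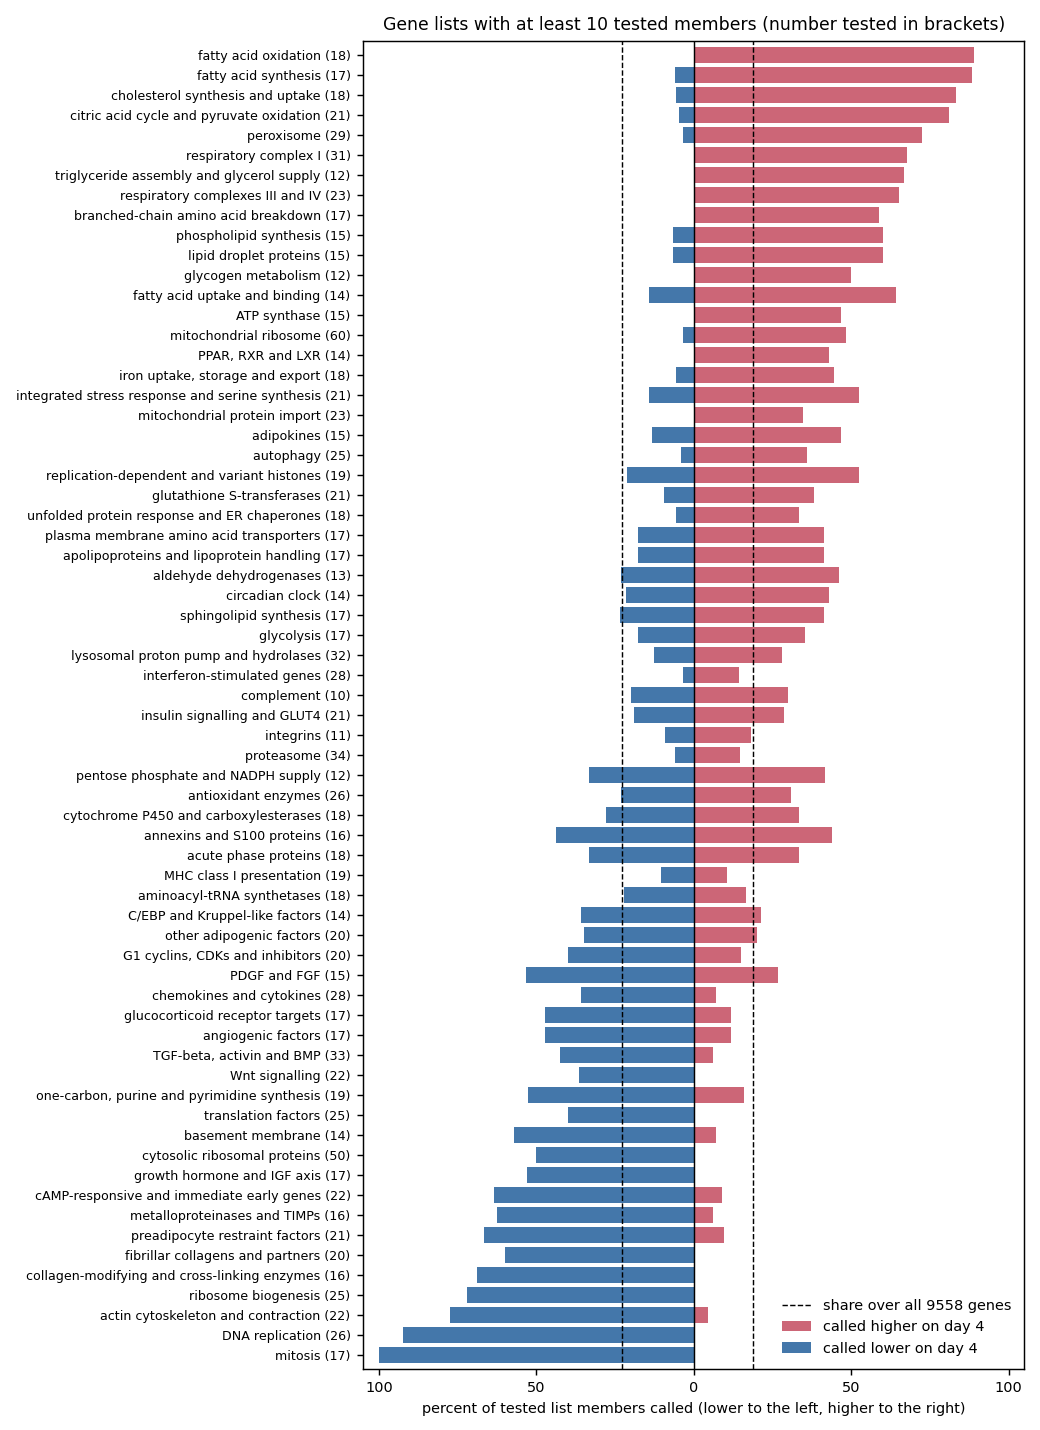
Share of tested members called higher (red, right) or lower (blue, left) on day 4 for each gene list with at least 10 tested members, with dashed lines at 18.7% and 22.7%, the shares over all genes. Fatty acid oxidation stands at the top with 16 of 18 higher, and mitosis at the bottom with 17 of 17 lower.

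Nearly all tested genes of cell division fell. In DNA replication 24 of 26 were lower and 0 higher (24 and 0 without day 4 replicate 2), with a median of -0.98. Mcm5, a subunit of the helicase that opens DNA, was at 10.72, 10.79 and 10.79 on day 2 and 9.39, 9.30 and 9.33 on day 4, with no overlap and a difference of -1.43 ± 0.09 (limma adjusted p = 7.55e-11). Mcm4 and Mcm6 of the same ring fell by 1.33 ± 0.09 and 1.23 ± 0.13, and Uhrf1, which keeps DNA methylation through replication, by 1.29 ± 0.21. In mitosis 17 of 17 were lower and 0 higher (17 and 0 without day 4 replicate 2), with a median of -1.06. Top2a, which untangles chromosomes, was at 10.63, 10.30 and 10.31 on day 2 and 9.11, 8.34 and 8.75 on day 4, and fell by 1.68 ± 0.19. Cdc20, which starts anaphase, fell by 1.18 ± 0.10, the kinase Cdk1 by 1.13 ± 0.15 and the spindle protein Nusap1 by 1.30 ± 0.17. Over the course, 0 of the 24 replication genes and 1 of the 17 mitosis genes that fell had their lowest day mean on day 4, and 14 of each had it on day 14. Mcm5 had a mean of 9.34 ± 0.05 (SD) on day 4 and 7.17 ± 0.02 on day 6.

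Promoters of the division genes are printed because nearly all members fell and the lists differ in motif. Of 16 mitosis promoters 13 (81.2%) held TTTGAA, the letters of the CHR element that DREAM and related complexes read, against 17.9% of all promoters, and 12 (75%) held CCAAT against 37.4%. Of 29 DNA replication promoters 7 (24.1%) held TTTGGCGC or TTTCCCGC, letters of E2F sites, against 1.56%. The E2F letters were in 0 of 16 mitosis promoters. The windows are from Cdk1 (chr10:69352913-69353012, minus strand), Cdc20 (chr4:118437344-118437443, minus strand), Top2a (chr11:99024190-99024289, minus strand), Kif11 (chr19:37376282-37376381, plus strand), Mcm6 (chr1:128359716-128359815, minus strand) and Mcm5 (chr8:75109360-75109459, plus strand), in RefSeq's GRCm38.p6. Each is 100 bases on the gene's strand, ending at the start in the mitosis genes, 10 bases before it in Mcm6 and 49 before it in Mcm5. Capitals mark CCAAT and TTTGAA in the mitosis genes, as ATTGG and TTCAAA on the other strand, and E2F letters in Mcm6 and Mcm5.
Cdk1: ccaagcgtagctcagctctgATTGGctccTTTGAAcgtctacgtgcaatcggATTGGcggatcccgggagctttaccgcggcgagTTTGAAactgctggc
Cdc20: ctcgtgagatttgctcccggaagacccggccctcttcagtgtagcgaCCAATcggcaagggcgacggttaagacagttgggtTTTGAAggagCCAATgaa
Top2a: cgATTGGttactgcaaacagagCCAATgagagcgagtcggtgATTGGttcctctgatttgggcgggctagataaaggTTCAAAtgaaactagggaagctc
Kif11: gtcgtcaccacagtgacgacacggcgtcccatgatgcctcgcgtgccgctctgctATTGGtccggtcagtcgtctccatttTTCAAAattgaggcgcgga
Mcm6: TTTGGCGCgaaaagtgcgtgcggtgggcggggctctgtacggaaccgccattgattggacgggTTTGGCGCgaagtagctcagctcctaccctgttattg
Mcm5: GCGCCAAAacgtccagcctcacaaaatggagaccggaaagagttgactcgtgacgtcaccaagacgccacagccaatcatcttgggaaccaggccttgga

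Genes that govern entry into the cycle moved both ways. Of G1 cyclins, kinases and inhibitors 8 of 20 were lower and 3 higher (7 and 3 without day 4 replicate 2). Cyclin D1 (Ccnd1), which carries growth signals to the cycle, was at 11.97, 12.06 and 12.12 on day 2 and 10.43, 10.48 and 10.36 on day 4. It fell by 1.63 ± 0.09 with no overlap (limma adjusted p = 1.24e-11). The inhibitor p18 (Cdkn2c) rose by 1.50 ± 0.10 and the retinoblastoma gene Rb1 by 0.65 ± 0.15, while the inhibitor p15 (Cdkn2b) fell by 0.89 ± 0.20 and Rbl1 by 0.67 ± 0.16. Cdk6 was undetected on day 2 and at least 1.26-fold higher.

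Histone genes went against the replication genes. Of the tested ones 10 of 19 were higher and 4 lower (10 and 4 without day 4 replicate 2), with a median of 0.38. H4c8 was at 8.50, 8.57 and 8.63 on day 2 and 11.02, 11.11 and 11.04 on day 4. That is a rise of 2.50 ± 0.09 with no overlap (limma adjusted p = 6.35e-14), and H4c9 and H2bc6 rose by 1.62 ± 0.17 and 1.46 ± 0.12. H2bc11, H2bc12, H2bc15 and H2bc4 rose by 1.26 ± 0.16, 1.19 ± 0.12, 1.29 ± 0.17 and 1.17 ± 0.22. Lower were H2ac20 (-0.86 ± 0.10), the replacement histone H3f3b (-0.67 ± 0.12), and H2ax (-0.54 ± 0.12), which marks DNA breaks. Copies of these genes are nearly identical, so a probe may read more than 1 of them.

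Most ribosome biogenesis genes fell, and fewer of the ribosomal protein and translation factor genes did. In ribosome biogenesis 18 of 25 were lower and 0 higher (16 and 0 without day 4 replicate 2), with a median of -0.61. Nucleolin (Ncl) fell by 1.15 ± 0.20 and Gar1, a core protein of small nucleolar RNPs, by 0.85 ± 0.08. Nop58 differed by -1.14 ± 0.40 and was not called without day 4 replicate 2, day 2 replicate 1 or day 4 replicate 3 (limma adjusted p from 0.0912 to 0.137). Among cytosolic ribosomal proteins 25 of 50 were lower and 0 higher (22 and 0 without day 4 replicate 2), with a median of -0.26. Rps15a was at 7.84, 7.62 and 7.63 on day 2 and 6.88, 6.35 and 6.60 on day 4, and Rpl22 and Rplp0 fell by 0.94 ± 0.08 and 0.93 ± 0.14. With its probes averaged Rplp0 was not called (-0.58 ± 0.30). Among translation factors 10 of 25 were lower and 0 higher (9 and 0 without day 4 replicate 2), with Eef2k, a kinase that brakes elongation, at -1.01 ± 0.13. Over the aminoacyl-tRNA synthetases 3 of 18 were higher and 4 lower (2 and 2 without day 4 replicate 2), near the shares over all genes.

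Part of the integrated stress response rose. This response lets cells meet shortage of amino acids or misfolded protein through the factor ATF4. Of its list 11 of 21 were higher and 3 lower (10 and 3 without day 4 replicate 2). Trib3, a pseudokinase, was at 6.34, 5.91 and 6.06 on day 2 and 8.83, 8.39 and 8.64 on day 4, and the factor Ddit3 (CHOP) at 8.52, 8.29 and 8.46 on day 2 and 10.79, 10.33 and 10.57 on day 4. All day 4 arrays were above day 2, by 2.52 ± 0.22 for Trib3 (limma adjusted p = 8.9e-09) and by 2.14 ± 0.16 for Ddit3. Nupr1 rose by 0.90 ± 0.07, Psat1 of serine synthesis by 0.74 ± 0.07 and Chac1, which breaks down glutathione, by 0.72 ± 0.09. Atf4 itself was not called, at 7.42, 8.57 and 8.51 on day 2 and 7.57, 8.74 and 8.70 on day 4, where replicate 1 was low on both days. Ddit4 fell by 0.93 ± 0.14 and Shmt2 by 0.42 ± 0.11, and Vldlr, given with fatty acid uptake, is in this list and fell too. Among amino acid transporters 7 of 17 were higher and 3 lower (6 and 2 without day 4 replicate 2), with Slc1a3 at 0.89 ± 0.11 and Slc6a9 at 0.75 ± 0.07. Of endoplasmic reticulum stress genes 6 of 18 were higher and 1 lower (6 and 1 without day 4 replicate 2). The degradation genes Herpud1 and Edem1 rose by 1.39 ± 0.08 and 1.03 ± 0.10 and the chaperone partner Dnajb9 by 1.33 ± 0.19. Xbp1 and Calr were not called, at 0.13 ± 0.10 and 0.14 ± 0.27.

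Of 22 stress response promoters 7 (31.8%) held TGATGNAAN, letters of the joint C/EBP and ATF element, against 3.95% of all promoters. Promoters of Atf3, Asns, Slc7a11 and Vldlr held it before the start too, and Vldlr fell. The windows of Nupr1 (chr7:126625482-126625581, minus strand) and Chac1 (chr2:119351048-119351147, plus strand), both of which rose, carry it near their 5′ ends, on the other strand. They are on the gene's strand in RefSeq's GRCm38.p6 and end 11 and 94 bases before the start.
Nupr1: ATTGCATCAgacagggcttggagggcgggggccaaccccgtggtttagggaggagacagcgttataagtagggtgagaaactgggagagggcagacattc
Chac1: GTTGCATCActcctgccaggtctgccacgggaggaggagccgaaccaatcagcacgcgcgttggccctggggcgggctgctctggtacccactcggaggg

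Protein turnover showed smaller changes, and with all 6 arrays the proteasome list had smaller shares called than all genes did. Of proteasome genes 5 of 34 were higher and 2 lower (5 and 3 without day 4 replicate 2; 6 and 4 with the replicate block), with the activator subunit Psme2 at 1.06 ± 0.11, and 3 were higher without day 2 replicate 1. Of lysosomal genes 9 of 32 were higher and 4 lower (7 and 4 without day 4 replicate 2; 14 and 5 with the replicate block). Mcoln1, a calcium channel of the lysosome, led the rises at 0.71 ± 0.14. Cathepsin K (Ctsk), which digests collagen, fell by 1.36 ± 0.14. In autophagy 9 of 25 were higher and 1 lower (9 and 2 without day 4 replicate 2; 12 and 2 with the replicate block), with Atg101 at 1.05 ± 0.09 and Atg13 at 0.85 ± 0.13, both of the kinase complex that starts it.

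Matrix and its processing enzymes fell. Among fibrillar collagens and their partners 12 of 20 were lower and 0 higher (14 and 0 without day 4 replicate 2), with a median of -0.73. Col1a1 was at 10.35, 10.33 and 10.70 on day 2 and 8.95, 8.82 and 8.53 on day 4, and fell by 1.69 ± 0.19 with no overlap. Col16a1 fell by 1.85 ± 0.21 and decorin (Dcn) by 1.33 ± 0.20. Among collagen-modifying enzymes 11 of 16 were lower and 0 higher (11 and 0 without day 4 replicate 2). Pcolce, which helps to cut procollagen, fell by 1.93 ± 0.12, the procollagen protease Bmp1 by 1.57 ± 0.13 and the cross-linking enzyme Lox by 1.72 ± 0.14. In the basement membrane 8 of 14 were lower and 1 higher (8 and 1 without day 4 replicate 2), with Nid2 at -1.49 ± 0.11, Lamb2 at -1.46 ± 0.13 and Col15a1 against them at 1.00 ± 0.15. Among metalloproteinases and their inhibitors 10 of 16 were lower and 1 higher (10 and 1 without day 4 replicate 2). Timp2 was at 11.02, 10.93 and 10.92 on day 2 and 9.09, 9.28 and 8.83 on day 4, and Timp1 and Mmp2 fell by 1.84 ± 0.14 and 1.56 ± 0.11.

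Many cytoskeleton genes fell, while the shares of integrins called were no larger than those over all genes. Among actin and contraction genes 17 of 22 were lower and 1 higher (15 and 1 without day 4 replicate 2). Smooth muscle actin (Acta2) was at 11.10, 11.02 and 10.90 on day 2 and 8.86, 10.43 and 8.66 on day 4, highest on replicate 2 among the day 4 arrays, and fell by 1.69 ± 0.27, with -2.25 ± 0.11 without that array. Tropomyosin (Tpm2) and caldesmon (Cald1) changed by -1.31 ± 0.20 and -1.32 ± 0.37, and the myosin light chain Myl6 rose by 0.68 ± 0.08. Actb, at -0.27 ± 0.10, was called with all 6 arrays and without day 2 replicate 1, not without any of the other 5 (limma adjusted p from 0.0622 to 0.159), and turned to 0.32 ± 0.09 when its probes were averaged. Among tubulins 4 of 8 were lower and 0 higher (4 and 0 without day 4 replicate 2; 4 and 1 with the replicate block). Of integrins 2 of 11 were higher and 1 lower (2 and 1 without day 4 replicate 2). Those shares, 18.2% and 9.09%, stand beside 18.7% and 22.7% over all genes. The laminin-binding chains Itga7 and Itga6 rose by 2.03 ± 0.14 and 1.71 ± 0.28, and Itga5, which binds fibronectin, fell by 0.98 ± 0.16. Annexins and S100 proteins were divided, and 7 of 16 were higher and 7 lower (7 and 7 without day 4 replicate 2). S100a1 was at 9.25, 9.02 and 9.05 on day 2 and 12.07, 11.88 and 11.82 on day 4, a rise of 2.82 ± 0.10, and Anxa8 rose by 1.58 ± 0.12. Anxa3 fell by 1.49 ± 0.12 and S100a4 by 1.68 ± 0.60. S100a4 was not called without day 4 replicate 1 or day 2 replicate 2 or 3 (-1.25 to -1.49), and each of those left 4 members of the list lower.

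More genes fell than rose among cyclic AMP-responsive and immediate early genes and among glucocorticoid targets, with both days labelled with the same medium. Among cyclic AMP-responsive and immediate early genes 14 of 22 were lower and 2 higher (11 and 2 without day 4 replicate 2), with a median of -0.63. The kinase Sik1, a direct target of CREB, was at 8.07, 7.88 and 8.10 on day 2 and 6.97, 6.39 and 6.71 on day 4. It fell by 1.33 ± 0.14, Junb by 1.26 ± 0.22, Egr1 by 1.12 ± 0.32 and the phosphatase Dusp6 by 1.09 ± 0.13. Among glucocorticoid receptor targets 8 of 17 were lower and 2 higher (7 and 2 without day 4 replicate 2), with a median of 0.02. Tsc22d3 (GILZ), a classical target, was at 12.44, 12.50 and 12.56 on day 2 and 11.20, 11.49 and 11.54 on day 4, and fell by 1.09 ± 0.15. Bcl6 and Hsd11b1, which regenerates active glucocorticoid, rose by 0.86 ± 0.12 and 0.50 ± 0.11. Of clock genes 6 of 14 were higher and 3 lower (6 and 2 without day 4 replicate 2). Dbp, an output gene of the clock, was at 7.42, 7.30 and 7.35 on day 2 and 9.18, 9.57 and 9.31 on day 4, and rose by 2.00 ± 0.10. Rora and Nr1d1, activator and repressor of Bmal1, rose by 1.67 ± 0.21 and 0.97 ± 0.15, and Per2 and Nfil3 fell by 0.59 ± 0.09 and 0.74 ± 0.08. The hour of sampling is not stated in the sources read here.

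In insulin signalling called genes moved both ways, and in the growth hormone axis they only fell. In insulin signalling 6 of 21 were higher and 4 lower (6 and 4 without day 4 replicate 2). Those shares, 28.6% and 19%, stand beside 18.7% and 22.7% over all genes. The insulin-regulated glucose transporter Slc2a4 was at 5.33, 5.41 and 5.49 on day 2 and 7.997, 8.34 and 8.29 on day 4. It rose 6.96-fold with no overlap (limma adjusted p = 2.08e-13), against a fall of the ubiquitous transporter Slc2a1 by 0.41 ± 0.09. The adapter Sh2b2 rose by 1.63 ± 0.13 and the PI 3-kinase subunit Pik3cb by 1.22 ± 0.12, and Akt2, detected on 1 of 3 day 2 arrays, by 0.94 ± 0.15. In the growth hormone and IGF axis 9 of 17 were lower and 0 higher (9 and 0 without day 4 replicate 2). The cytokine feedback gene Socs3 was at 8.51, 8.61 and 8.68 on day 2 and 7.15, 7.35 and 6.99 on day 4, a fall of 1.44 ± 0.12, and the growth hormone receptor Ghr fell by 0.60 ± 0.10 but was not called when its probes were averaged.

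Growth factor pathways were lower in more genes than they were higher. In Wnt signalling 8 of 22 were lower and 0 higher (7 and 0 without day 4 replicate 2; 10 and 3 with the replicate block). The ligand Wnt6, detected on 2 of 3 day 4 arrays, fell by 1.29 ± 0.14, Wnt4 by 1.14 ± 0.14 and Ccn4, a secreted Wnt target, by 1.71 ± 0.14. In TGF-beta, activin and BMP signalling 14 of 33 were lower and 2 higher (13 and 1 without day 4 replicate 2). Fstl1 was at 11.73, 11.78 and 11.88 on day 2 and 9.68, 9.99 and 9.87 on day 4, and the activin antagonist Fst fell by 1.62 ± 0.28 and Ltbp1, which holds latent TGF-beta in matrix, by 1.43 ± 0.17. The ligand Gdf10 was undetected on day 2 and at least 1.7-fold higher. In PDGF and FGF signalling 8 of 15 were lower and 4 higher (8 and 4 without day 4 replicate 2). The PDGF receptor Pdgfra was at 11.56, 11.53 and 11.47 on day 2 and 9.61, 9.89 and 9.67 on day 4, and fell by 1.80 ± 0.10 with no overlap. Fgf7 and the receptor Fgfr3 fell by 1.55 ± 0.13 and 1.24 ± 0.15, and Klb, the co-receptor for FGF21, was undetected on day 2 and at least 4.3-fold higher. Of angiogenic factors 8 of 17 were lower and 2 higher (8 and 2 without day 4 replicate 2), with Angpt2 at -1.52 ± 0.10, Nrp1 at -1.22 ± 0.09 and Vegfb at 0.88 ± 0.08.

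Transcription factors of adipogenesis had unequal changes. Pparg, the receptor that drives adipogenesis, was at 11.73, 11.55 and 11.57 on day 2 and 12.45, 12.16 and 12.33 on day 4. Its rise of 0.70 ± 0.11 (limma adjusted p = 2.26e-05) was smaller than that of the liver X receptor Nr1h3, at 1.34 ± 0.09. In that family 6 of 14 were higher and 0 lower (6 and 0 without day 4 replicate 2; 7 and 1 with the replicate block). Cebpa was at 7.65, 7.47 and 7.61 on day 2 and 9.25, 8.70 and 9.005 on day 4, a rise of 1.41 ± 0.16 with no overlap, and Cebpb fell by 0.54 ± 0.09. Of C/EBP and Kruppel-like factors 5 of 14 were lower and 3 higher (5 and 3 without day 4 replicate 2), with Klf15, detected on 1 of 3 day 2 arrays, at 0.96 ± 0.27 (not called without background correction, 0.28 ± 0.15) and Klf5 at -1.04 ± 0.15, and 2 were lower without day 2 replicate 1 or day 4 replicate 3. Among factors that hold preadipocytes back 14 of 21 were lower and 2 higher (14 and 2 without day 4 replicate 2), with a median of -1.13. Dlk1 was at 12.31, 12.37 and 12.45 on day 2 and 10.87, 10.83 and 10.73 on day 4, Zfp521 fell by 1.62 ± 0.10 and the homeobox gene Msx1 by 1.57 ± 0.16. Ddit3, which blocks C/EBP proteins, is in that list and rose. Of other adipogenic factors 7 of 20 were lower and 4 higher (6 and 4 without day 4 replicate 2), with Id4 at -1.68 ± 0.26, Nr2f1 at -1.18 ± 0.18 and Zfp423, which marks committed preadipocytes, at 0.70 ± 0.16. Called higher in that list and in the C/EBP list were 20% and 21.4%, beside 18.7% over all genes. Called lower were 35% and 35.7%, beside 22.7%.

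Secreted proteins changed in both directions. Of adipokines 7 of 15 were higher and 2 lower (6 and 2 without day 4 replicate 2). Nrg4, detected on 1 of 3 day 2 arrays, rose by 1.75 ± 0.14, angiotensinogen (Agt) by 1.21 ± 0.12 and resistin (Retn) by 0.64 ± 0.19, which was not called without day 4 replicate 1 or day 2 replicate 2 (limma adjusted p = 0.0764 and adjusted p = 0.0674). Lcn2 and Ccn5 fell by 0.59 ± 0.17 and 1.13 ± 0.10, and Pip, a secreted protein outside that list, fell by 1.23 ± 0.09. Lep was at 5.23, 4.88 and 4.70 on day 2 and 5.33, 5.80 and 5.11 on day 4, an overlap, with 0.48 ± 0.16, and its call rested on single arrays in the way given for the markers. Of acute phase proteins 6 of 18 were higher and 6 lower (5 and 6 without day 4 replicate 2), with haptoglobin (Hp) at 8.40, 8.13 and 8.03 on day 2 and 10.30, 10.94 and 10.05 on day 4. Haptoglobin rose by 2.24 ± 0.17 and hemopexin (Hpx), detected on 2 of 3 day 2 arrays, by 2.63 ± 0.14, while the endotoxin-binding protein Lbp fell by 0.74 ± 0.11. Among chemokines and cytokines 10 of 28 were lower and 2 higher (11 and 2 without day 4 replicate 2). Cxcl1, which draws neutrophils, was at 9.07, 9.14 and 9.16 on day 2 and 7.39, 7.48 and 7.14 on day 4 and fell by 1.79 ± 0.11, and Cx3cl1 and Cxcl12 fell by 1.52 ± 0.10 and 1.24 ± 0.09. Ccl17, undetected on day 4, was at least 2.3-fold lower. Among apolipoproteins and lipoprotein handling 7 of 17 were higher and 3 lower (5 and 3 without day 4 replicate 2). The receptor for high-density lipoprotein Scarb1 was undetected on day 2 and at least 3.31-fold higher, and the receptor Lrp1 fell by 1.31 ± 0.32.

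Day 4 replicate 2 changed the counts of a few lists. On that array 61 genes stood over 1 log2 unit above both other day 4 arrays and 13 below. The same counts were 18 above and 109 below on replicate 1, and 1 and 1 on replicate 3. Ifi27l2a, an interferon-induced gene, was at 6.71, 7.20 and 7.14 on day 2 and 6.03, 11.42 and 6.53 on day 4, so that replicate 2 lay above day 2 and the other day 4 arrays below it. Its difference was 0.98 ± 0.83 with all arrays and -0.74 ± 0.33 without replicate 2, and it was called in neither. Apoc1 was at 5.86, 5.75 and 5.77 on day 2 and 8.25, 11.998 and 8.31 on day 4, and its rise of 3.73 ± 0.57 became 2.49 ± 0.09. Cox8b had 6.66, 9.78 and 6.88 on day 4, and its bound went from at least 7.76-fold to at least 3.87-fold.

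Counts of immune lists moved with that array. Among interferon-stimulated genes 4 of 28 were higher and 1 lower (3 and 4 without day 4 replicate 2; 7 and 1 with the replicate block), with 7 higher without day 4 replicate 3 and 2 without any 1 of the day 2 arrays, and among MHC class I genes 2 of 19 were higher and 2 lower (1 and 4 without day 4 replicate 2; 4 and 2 with the replicate block). With all 6 arrays both lists had smaller shares called than all genes did. Gbp2 rose in both fits (1.36 ± 0.28 and 0.79 ± 0.10) but not on the 6 arrays alone (limma adjusted p = 0.0586), and Ifi27 too (1.36 ± 0.07 and 1.30 ± 0.08). H2-T23 was 1.22 ± 0.37 with all arrays and not called without it (0.79 ± 0.36). In complement 3 of 10 were higher and 2 lower (1 and 2 without day 4 replicate 2), C4b being at 6.42, 6.22 and 6.50 on day 2 and 6.78, 8.62 and 6.62 on day 4. C4b was not called without day 4 replicate 2 (0.32 ± 0.17) or day 2 replicate 2 (limma adjusted p = 0.0733). Sncg and Igfals turned from 0.66 ± 0.53 and 0.38 ± 0.36 to -0.48 ± 0.15 and -0.39 ± 0.11, and were called lower without the array. Without day 4 replicate 3 Sncg was called higher, at 1.33 ± 0.50. In all 507 genes were called only with it, 169 only without it, and 3451 in both fits with 0 in opposite directions. Leaving out any other of the 6 arrays kept a similar number, from 3423 to 3460 of the 3958 calls.

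**Figure D3:**
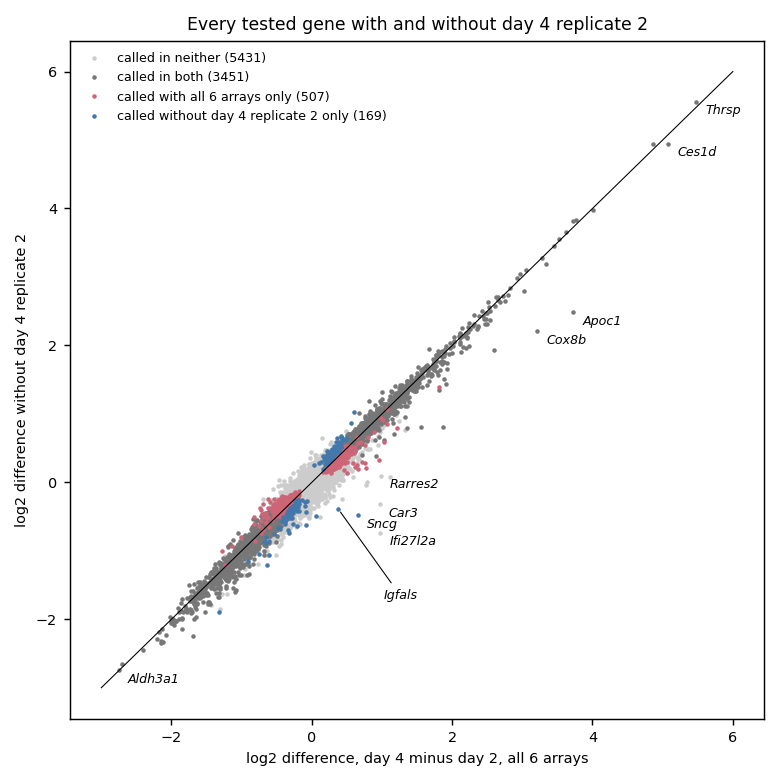
Difference between day 4 and day 2 on the log2 scale for each of the 9558 genes, with all 6 arrays (horizontal) and without day 4 replicate 2 (vertical), coloured by the fit that called it, with a line of equality. The 3451 genes called in both lie along the line with exceptions. Apoc1 and Cox8b, called in both, fall below it, as do Rarres2, Car3, Sncg, Igfals and Ifi27l2a.

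Replicate 1 stood apart on both days in another set of genes. On day 2 it lay over 1 log2 unit below both other arrays in 97 genes and on day 4 in 109, of which 59 were shared. Of those 59, which were chosen for their spread within a day, 1 was called beside 41.4% of all genes, and 30 with the replicate number as a block beside 53.3%. The following were chosen after their values were seen, and Hadh and Col3a1 among them do not reach that 1-unit limit on both days. Pcna, the sliding clamp of replication, was at 7.35, 9.15 and 8.73 on day 2 and 6.08, 7.67 and 7.16 on day 4, a difference of -1.44 ± 0.68 that was not called (limma adjusted p = 0.0984). Within each replicate it was lower on day 4, and with the block it passed (limma adjusted p = 1.66e-08). Stmn1, which destabilises microtubules, was at 5.97, 7.91 and 7.43 on day 2 and 4.99, 6.80 and 6.69 on day 4, not called (limma adjusted p = 0.262) and called with the block (limma adjusted p = 5.42e-05). Hadh of fatty acid oxidation differed by 1.00 ± 0.43 and Col3a1 by -1.32 ± 0.60, neither called with all arrays, with block values of limma adjusted p = 2.59e-06 and limma adjusted p = 1.67e-06. Without day 2 replicate 1 Pcna and Col3a1 were called (-1.97 ± 0.72 and -1.70 ± 0.65), without day 4 replicate 2 Col3a1 (-1.89 ± 0.62), and without day 4 replicate 1 Hadh (1.29 ± 0.47). The stem cell factor gene Kitl ran the other way, at 8.49, 6.16 and 5.47 on day 2 and 8.12, 5.38 and 5.19 on day 4, and was called lower with the block (-0.48 ± 0.19). What set replicate 1 apart was not tested.

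**Figure D4:**
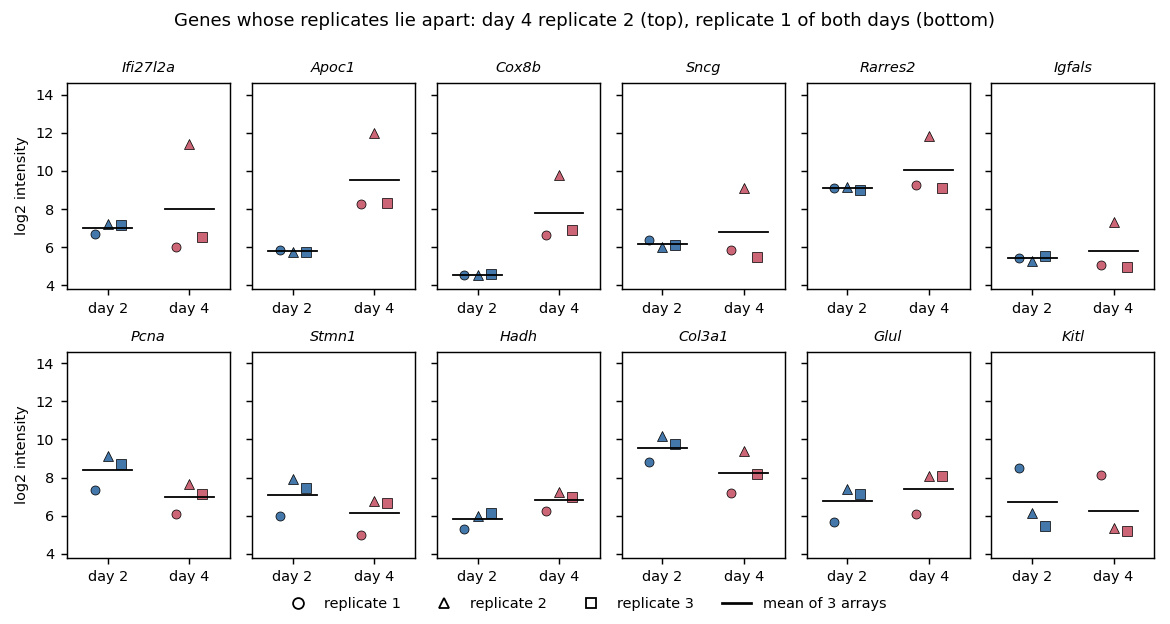
Normalized log2 intensity on each of the 6 arrays for 12 genes whose replicates lie apart, with a marker shape per replicate and a line at the mean of 3 arrays. In the top row the day 4 triangle (replicate 2) lies above the other day 4 arrays, in Ifi27l2a at 11.42 against 6.03 and 6.53. In the bottom row the circle (replicate 1) lies over 1 log2 unit apart on both days in Pcna, Stmn1, Glul and Kitl, a limit that Hadh and Col3a1 do not reach on both days.

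The changes from day 2 to day 4 were set against all 8 days as day means, without a test. Of the 389 rises 111 (28.5%) had moved at least 1 unit the same way from day 0 to day 2, and 95 (24.4%) went at least 1 unit further by day 18. Of the 389 genes that rose at least 2-fold, 73 (18.8%) had their highest mean on day 4 and 138 (35.5%) on day 6. On day 2, 125 of them (32.1%) had their lowest mean. Elovl3 and Tmem45b were among those highest on day 4. Elovl3 had a mean of 7.32 ± 0.11 (SD, n = 3) on day 4, 6.26 ± 0.06 on day 6 and 4.44 ± 0.16 on day 18, and Tmem45b had 9.50 ± 0.18 on day 4 and 7.75 ± 0.04 on day 8. In 29 genes (7.46%) the day 2 mean was at least 1 unit under that of day 0, so that they went down before they rose. Ces1d was one, at 9.20 ± 0.11 on day 0, 7.19 ± 0.12 on day 2 and 12.27 ± 0.23 on day 4, and Dbp another, at 10.39 ± 0.05, 7.36 ± 0.06 and 9.35 ± 0.20.

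Of the 420 genes that fell at least 2-fold, 170 (40.5%) had their lowest mean on day 4 and 126 (30%) on day 6. At least 1 unit lower on day 2 than on day 0 were 156 (37.1%), and 54 (12.9%) fell at least 1 unit further by day 18. By day 18 the mean of 126 (30%) had come back by at least 1 unit. Zfp521 was at 6.75 ± 0.14 on day 4 and 7.87 ± 0.02 on day 18, and Ptx3 at 7.12 ± 0.38 and 9.34 ± 0.18. In 46 (11%) day 2 was at least 1 unit above day 0, as in Aldh3a1 at 9.22 ± 0.05 on day 0 and 10.50 ± 0.11 on day 2. Day means of day 4 include replicate 2.

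**Figure D5:**
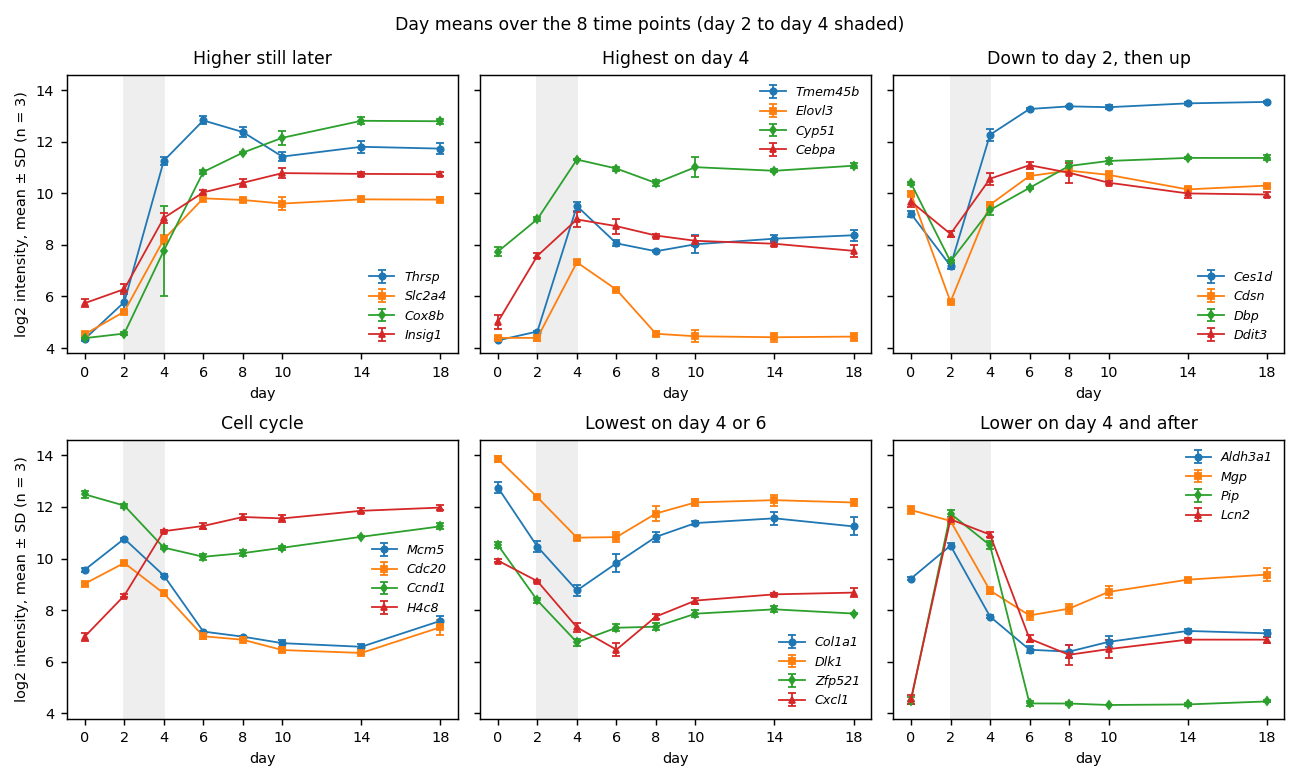
Mean log2 intensity ± SD of 3 arrays on each of the 8 days for 24 genes, grouped by the shape of their course, with the interval from day 2 to day 4 shaded. Thrsp and Insig1 go on rising after day 4, Elovl3 returns to 4.44 ± 0.16 by day 18, and Ces1d dips to 7.19 ± 0.12 on day 2.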

How the data were processed

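RNA of 3T3-L1 cells was measured on 24 beadchip arrays, 3 on each of 8 days, of which the 6 of days 2 and 4 carry the comparison. The authors deposited non-normalized probe intensities with detection p-values, exported with GenomeStudio 2011.1 per the submitters' processing notes, and a table of their own normalized intensities, which serves as an alternative because how it was scaled is not stated in the sources read here.

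Intensities were background-corrected with normexp on the negative controls inferred from the detection p-values, quantile-normalized and log2-transformed with an offset of 16 (neqc, limma 3.58.1 in R 4.3.3). Of 25697 probes 14160 had a detection p-value under 0.05 on at least 3 of 24 arrays. Gene names came from the platform annotation. Of all probes 23978 had 1 symbol, 0 had several and 1719 none. The probe with the highest mean stood for a gene, giving 9558 genes, 2644 of them with several probes. In 17 genes probes were called in opposite directions. On the 6 arrays 11783 to 12244 probes were detected, and the number of arrays limits the precision. Replicates correlated across genes at r = 0.9885 to 0.9958 on day 2 and 0.9821 to 0.991 on day 4.

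limma fitted 1 mean per day on all 24 arrays (16 residual degrees of freedom), and the two-sided moderated contrast of day 4 minus day 2 was adjusted by Benjamini-Hochberg over all genes. The fit was also tested on simulated data of the 9558 genes, with 100 genes changed at each size and noise drawn independently for each array. There it recovered 49% of changes of 0.5 log2 units and 94% of changes of 1. Far fewer genes changed in the simulation than were called here, and replicate numbers shared no deviation in it, so these shares may not hold for this comparison. A gene undetected on every array of 1 day has only a bound, taken as the bright day's mean against, per array, the higher of the lowest signal among detected probes and the gene's own. Same-numbered arrays of days 2 and 4 deviated together from their day means (r = 0.706, 0.463 and 0.336 across genes). The 84 same-number pairs over all days had r from 0.251 to 0.762. The replicate numbers were therefore taken to pair the arrays, but only in the block alternative. SEs, p-values and counts given with no mention of the block leave this pairing out. With the block complex I had 29 higher beside 21, and cytosolic ribosomal proteins had 33 lower beside 25.

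Alternatives were each array left out in turn, the replicate block, no background correction, median scaling, the authors' table, both other detection filters, the mean of a gene's probes and the 6 arrays alone. Members and lists (78 lists, 1327 genes tested) were chosen with earlier results of these data known. Genes were named as the 15 largest rises and 15 largest falls called with and without day 4 replicate 2 with no overlap of days, the 4 called members of largest change in each list with up to 3 that went against most, a set of 16 genes, and the 10 genes most dependent on that array by each of 2 measures. Other list members and those apart in replicate 1 were chosen after their values were seen. Promoters are from RefSeq (GRCm38.p6), in which 7786 of the 9558 genes matched.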

Additional observations from a re-analysis of the deposited data

How the results depend on the processing

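Leaving out 1 of the 6 arrays at a time gave from 3504 to 3662 genes called, beside 3958 with all. From 1539 to 1686 were higher and from 1922 to 2050 lower. At least 2-fold were from 805 to 844, with 390 to 409 higher and 407 to 437 lower, and of the 1327 list genes 703 to 730 were called, beside 773. With the replicate number as a block 5098 genes were called, 2319 higher and 2779 lower, with all 3958 among them. With that block 822 were at least 2-fold, 394 higher and 428 lower, and 907 list genes were called. On the 6 arrays alone 4594 were called with the replicate block and 3527 without it, the former chosen after seeing the data. Without background correction 3919 genes were called, but 361 were at least 2-fold, 199 higher and 162 lower. The cause was not tested. The other alternatives gave from 3810 to 3953 calls, and median scaling moved the share of higher among called genes from 45.2% to 37.7%. Of 412 named genes 335 kept direction and call under every alternative. Over all alternatives 5912 of 6173 gene values did so, 225 lost the call, 33 gained one and 3 turned direction. Those 3 were Actb at 0.32 with its probes averaged, and Igfals and Sncg at -0.39 and -0.48 without day 4 replicate 2, with 0.78 and 1.33 as their highest values on leaving out an array, without day 4 replicate 3. The call was lost without 1 array other than day 4 replicate 2 in 49 genes. Of 68 counts of at least 5 called list members, 11 of 1020 alternative values moved over 1.5 times, among them iron handling, with 4 higher under median scaling beside 8. Smaller counts moved more often, 114 of 1920 values over all 128 counts above 0. Probes near background limit what fold can be read. With 3 arrays a day, changes of 0.5 log2 units were often missed in a simulation that had far fewer changed genes than were called here.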

Other observations

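Nucleotide synthesis and detoxification genes made up further lists. In one-carbon, purine and pyrimidine synthesis 10 of 19 were lower and 3 higher (5 and 3 without day 4 replicate 2), with a median of -0.32. Ctps, which makes CTP, was at 11.92, 11.62 and 11.71 on day 2 and 10.92, 10.89 and 10.92 on day 4, and fell by 0.84 ± 0.09, while its paralog Ctps2 rose by 0.64 ± 0.09. Thymidylate synthase (Tyms) fell by 0.81 ± 0.10. Impdh1, which commits purines to GMP, went the other way at 8.22, 8.05 and 8.06 on day 2 and 9.99, 9.73 and 9.94 on day 4, with every day 4 array above day 2, and rose by 1.78 ± 0.14. Cad, of the first steps of pyrimidine synthesis, changed by -0.72 ± 0.21 and was not called without day 4 replicate 2 (-0.56 ± 0.22). Among cytochrome P450 and carboxylesterase genes 6 of 18 were higher and 5 lower (6 and 5 without day 4 replicate 2). Those shares, 33.3% and 27.8%, stand beside 18.7% and 22.7% over all genes. The carboxylesterase Ces1f and the epoxide hydrolase Ephx2 rose by 1.35 ± 0.11 and 1.35 ± 0.19, and the other epoxide hydrolase Ephx1 and the P450 gene Cyp1b1 fell by 0.61 ± 0.13 and 1.24 ± 0.28.

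Retnla, a secreted relative of resistin outside the lists and chosen after its values were seen, was at 8.38, 8.30 and 8.22 on day 2 and 9.96, 10.09 and 10.17 on day 4. All day 4 arrays were above day 2, and it rose by 1.77 ± 0.08 (limma adjusted p = 1.25e-12). Of the other cell type lists, Alpl and Sox9 of cartilage and bone were at 0.65 ± 0.15 and -0.65 ± 0.21, both called, and in their list 1 of 4 were higher and 1 lower (1 and 1 without day 4 replicate 2). Sox9 was not called without day 4 replicate 1 or day 2 replicate 2 or 3 (limma adjusted p from 0.051 to 0.0673). Further genes high on day 4 replicate 2 were Ubd, a ubiquitin-like protein, at 6.50, 9.60 and 6.33 on day 4, the adipokine Rarres2 at 9.24, 11.84 and 9.12 on day 4 and the carbonic anhydrase Car3 at 4.37, 8.23 and 4.38 on day 4. Rarres2 was called without day 4 replicate 1 or 3 (1.40 to 1.45) and with the replicate block (limma adjusted p = 0.0428). Car3 was called without day 4 replicate 1 or 3 (0.038 and 0.0422 as limma adjusted p), and neither was in the fit on all arrays with no block. Ubd rose with and without that array, by 1.87 ± 0.50 and 0.81 ± 0.13, and was not called on the 6 arrays alone (1.92 ± 0.85). The matrix protein Thbs2 was at -0.08 ± 0.26 with all arrays and was called lower without replicate 2, at -0.62 ± 0.11. Mettl7b, a lipid droplet methyltransferase, differed by 1.02 ± 0.29 and was not called without that array (0.59 ± 0.25), without background correction or on the 6 arrays alone (limma adjusted p = 0.0986 and adjusted p = 0.0768).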
